A study of Mus musculus with 36 samples.

Results

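The genes described here encode the Dlx homeodomain and Sp zinc finger transcription factors of the forebrain interneuron lineage and the enzymes that make GABA. They were chosen by name: every row of the deposited log2 expression table named Dlx1, Dlx2, Dlx5, Dlx6, Dlx6os1, Sp8, Sp9, Gad1 or Gad2. The 9 names gave 10 of the 19909 rows, because Dlx6os1 stands in 2 rows. The 36 RNA libraries came from C57BL/6 mice, 8 weeks old, with no genetic change or treatment named for the animals. Of these, 28 held populations sorted by flow cytometry from dissociated subependymal zone (SEZ), the neurogenic layer along the lateral ventricle. They were labelled qNSC, pNSC, aNSC and NPC1 (4 libraries each) and NPC2, NB1, NB2 and Other (3 each). The other 8 libraries came from SEZ neurospheres at passage 4, grown in suspension with the mitogens EGF and FGF, loaded with the dye DFFDA at 2 ug/ml, cultured for 4 days and sorted as DFFDA_H and DFFDA_L (4 libraries each). The labels give neither the sorting gates nor the meaning of the population names, and they do not say how many animals or cultures stand behind the libraries. The labelled sequence used below runs from qNSC through pNSC and aNSC to NPC1, NPC2, NB1 and lastly NB2.

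In the adult mouse SEZ, stem cells give rise through dividing progenitors to neuroblasts that migrate to the olfactory bulb, where most become GABAergic interneurons. Dlx1 and Dlx2, and Dlx5 and Dlx6, are neighbouring gene pairs whose homeodomain proteins direct ventral forebrain progenitors toward a GABAergic fate, with Dlx2 known to act in dividing SEZ progenitors. Dlx6os1, also called Evf2, is a long noncoding RNA read from the strand opposite Dlx6. Sp8 and Sp9 act in the formation of olfactory bulb interneurons, and Gad1 and Gad2 encode GAD67 and GAD65, which turn glutamate into GABA.

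On GRCm38 with GENCODE M21, Dlx1 lies at chr2:71528113-71533981 on the plus strand and Dlx2 at chr2:71543408-71546754 on the minus strand, with 9.43 kb between them. Dlx6 lies at chr6:6863334-6868568 on the plus strand and Dlx5 at chr6:6877805-6882085 on the minus strand, 9.24 kb apart. The long Dlx6os1 gene spans chr6:6820189-6871592 on the minus strand and so runs across Dlx6, but their exons share 0 bases. The second Dlx6os1 row is a misc_RNA model of 146 bases, chr6:6871488-6871633, of which 71.2% lies in exons of the long gene, so how reads were divided between these rows is uncertain. Sp9 is at chr2:73271925-73284706, Gad1 at chr2:70553072-70602014, Gad2 at chr2:22622205-22693874 and Sp8 at chr12:118846329-118852576, all on the plus strand. The library kit does not mark strand, so reads from exon bases shared with a gene on the opposite strand cannot be told apart. Dlx1 shares 335 such bases with the antisense gene Dlx1as, Sp9 270 with Cir1 and Dlx6 104 with Dlx6os2. The long Dlx6os1 gene shares 180 with Gm27699 and 207 with Gm27905.

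RefSeq promoter windows on GRCm38.p6, the 250 bases before a transcript start, were found for 7 of the 9 names, as 10 windows. Shown are parts of windows that lie before the first annotated exon base inside the window, for 4 genes that differed in their course. These were Dlx2, which was already higher in pNSC and aNSC, Dlx6os1, which was lower in aNSC, and Gad1 and Gad2, whose last rise came in NB2. The Dlx6os1 and Gad1 stretches lie inside the spans of these genes given above, so each has exon bases of its own gene before it. Capitals mark TAATTA (the core that homeodomain proteins prefer), GGGCGG (the GC box of Sp factors) and TATAAA (the TATA box), each on either strand.
Dlx2, chr2:71546755-71547004, minus strand: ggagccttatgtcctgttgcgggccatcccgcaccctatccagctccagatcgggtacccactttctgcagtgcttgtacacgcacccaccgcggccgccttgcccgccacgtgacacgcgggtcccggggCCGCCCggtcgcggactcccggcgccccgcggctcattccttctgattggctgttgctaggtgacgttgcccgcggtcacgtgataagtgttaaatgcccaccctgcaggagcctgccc
Dlx6os1, chr6:6861684-6861933, minus strand: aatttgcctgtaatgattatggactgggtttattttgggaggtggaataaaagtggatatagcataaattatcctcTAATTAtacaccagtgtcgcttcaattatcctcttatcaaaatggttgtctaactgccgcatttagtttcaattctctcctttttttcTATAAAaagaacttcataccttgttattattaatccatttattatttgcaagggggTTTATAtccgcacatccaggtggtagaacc
Gad1, chr2:70561879-70562041, plus strand: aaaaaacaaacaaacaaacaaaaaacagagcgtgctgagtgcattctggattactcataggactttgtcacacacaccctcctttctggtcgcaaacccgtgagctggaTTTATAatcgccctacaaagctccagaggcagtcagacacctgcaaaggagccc
Gad2, chr2:22622077-22622204, plus strand: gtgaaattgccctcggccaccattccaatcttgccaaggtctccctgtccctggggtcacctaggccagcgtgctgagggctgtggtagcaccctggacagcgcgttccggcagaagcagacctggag
The Dlx6os1 sequence holds 1 TAATTA, at position -174 from the start, and 2 TATAAA, 1 on each strand, at -86 and -30. The Dlx2 sequence holds 1 GGGCGG on the opposite strand, the Gad1 stretch holds 1 TATAAA on the opposite strand, and the Gad2 stretch holds none of these motifs. TAATTA was found in both Dlx6os1 windows and in 1 of the 3 Sp8 windows, and it occurs in 4.84% of all 32851 RefSeq windows of this length. For comparison, GGGCGG occurs in 32.7% and TATAAA in 12.4% of them, and the E-box CAGCTG, found in none of the 10 windows, in 13.0%. The Dlx2 window is 66.4% G and C and this Dlx6os1 window 34.0%, beside a median of 52.4% over all windows. A match of letters is a description of the window only.

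**Figure D1:**
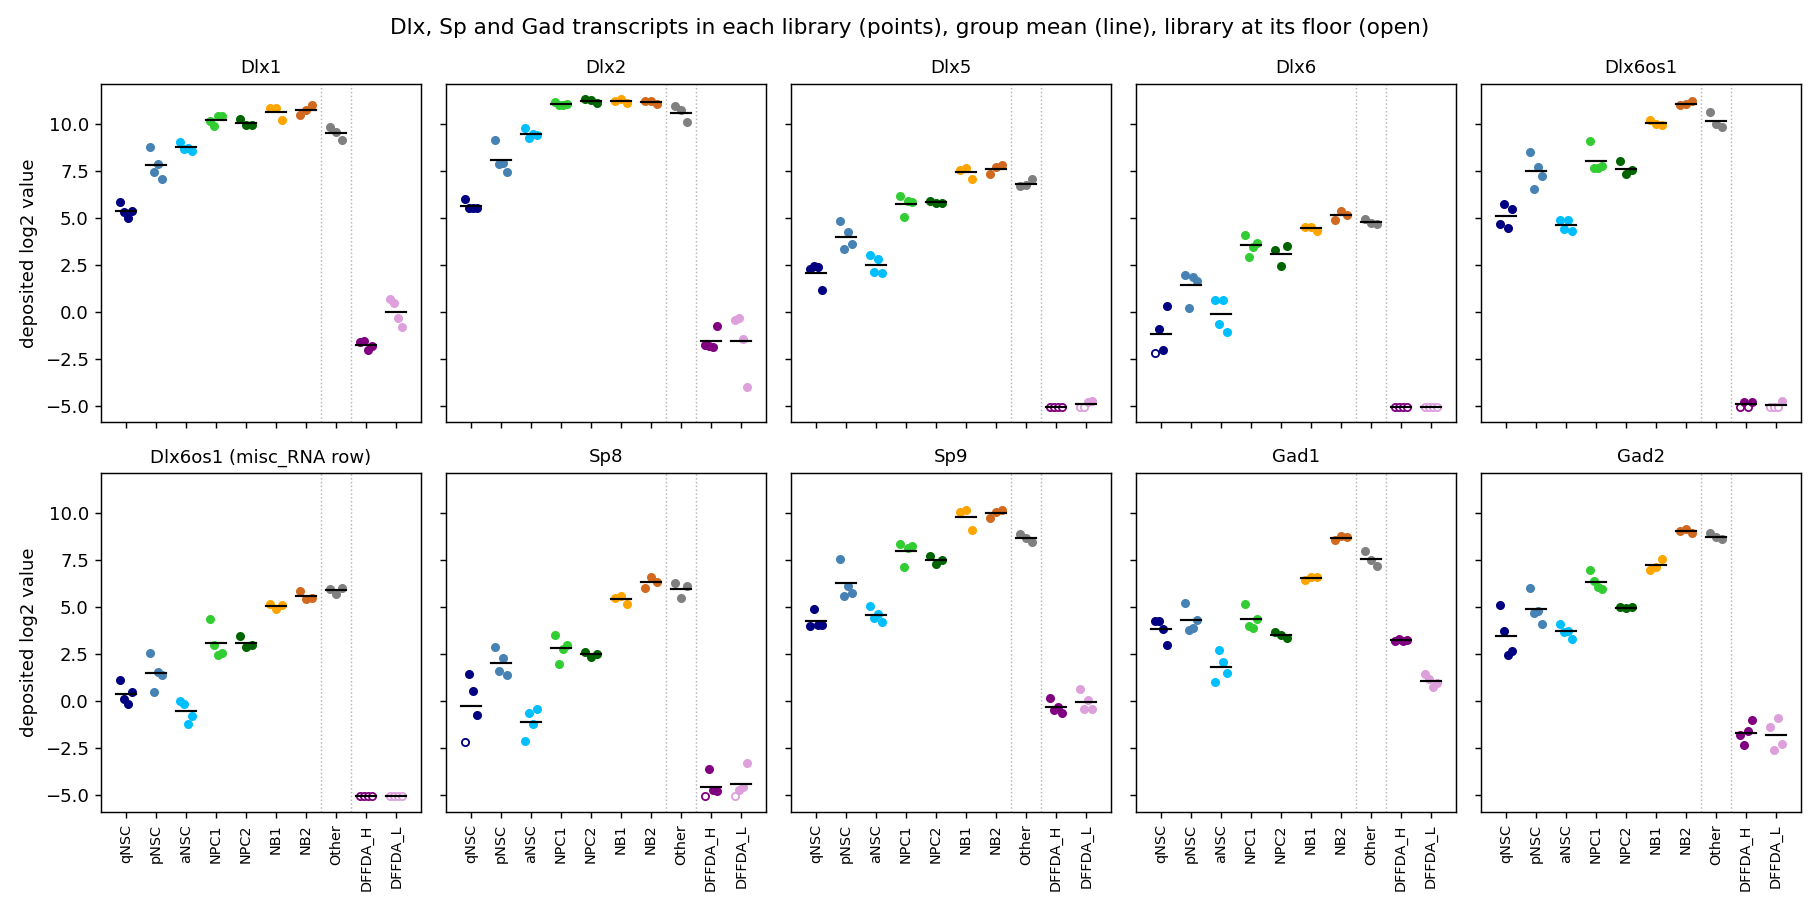
Deposited log2 values (vertical axis) of the 10 rows in each of the 36 libraries, by labelled population (horizontal axis); points are libraries, lines are group means, and open points lie at their library's lowest value. Dlx1 and Dlx2 climbed from qNSC through aNSC, the other rows had a lower mean in aNSC than in pNSC, and every row had its highest mean in freshly sorted cells.

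Marker genes of astroglia and of neuroblasts changed in opposite directions along the labelled sequence. Summed over 7 astroglial and stem cell genes, the log2 level was 14.33 to 14.46 in qNSC and 7.23 to 7.43 in NB2. Summed over 6 neuroblast genes (Dcx, Tubb3, Stmn2, Cd24a, Nrxn3 and Elavl4) it was 6.50 to 7.29 in qNSC, 8.24 to 9.96 in pNSC, 8.34 to 8.92 in aNSC and 12.60 to 12.79 in NB2. Levels are on a scale that resembles log2 CPM, in which every library has the same total, and each library has a lowest value, its floor, between -5.06 and -2.18, that stands for genes without reads. In such bulk samples, fewer cells of a type and less RNA per cell cannot be told apart.

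Every row was higher in NB2 than in qNSC, and the libraries of these populations did not overlap for any row. In limma's fit over all 28 freshly sorted libraries, all 10 rows were called higher at an adjusted p under 0.05, where 39.4% of all tested genes were called higher, and 65.8% of genes had libraries that did not overlap. The median log2 difference of the rows was 5.56, against 0.30 over all tested genes. It was smallest for Gad1, at 4.85 ± 0.37 (SE; limma adjusted p = 1.27e-11), and largest for Sp8, at 6.55 ± 0.56 (adjusted p = 1.34e-10). Dlx2, a selector of the GABAergic fate, differed by 5.52 ± 0.25 (adjusted p = 4.20e-16). For Sp8 and Dlx6, 1 of the 4 qNSC libraries, replicate 1, lies at its floor, so these differences depend on where that floor is. Its floor of -2.18 is the highest of the 36 libraries, against -4.73 to -4.19 in the other qNSC libraries.

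The level of the transcripts per kilobase of exon also differed among the genes. Dlx2 ranked first of the 9 genes in all 7 populations of the sequence, at a mean log2 level per kilobase of 4.12 in qNSC, 7.96 in aNSC and 9.64 in NB2. Dlx6 and Sp8 took the last 2 places in qNSC, pNSC, aNSC, NB1 and NB2. In NB2 Dlx6 stood at 3.88 and its neighbour Dlx5 at 6.42 on the same scale.

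From qNSC to pNSC, nearly all transcripts of the programme were higher. Dlx2 read 5.98, 5.53, 5.49 and 5.54 in the 4 qNSC libraries and 9.15, 7.87, 7.89 and 7.41 in pNSC. Dlx1 read 5.84, 5.30, 4.99 and 5.34 in qNSC and 8.77, 7.45, 7.84 and 7.03 in pNSC. The libraries of both genes lay apart. In the limma fit, Dlx2 rose by 2.45 ± 0.23 (5.45-fold; adjusted p = 3.37e-08) and Dlx1 by 2.41 ± 0.25 (adjusted p = 1.55e-07). Over the 10 rows, 9 were called higher, where 14.2% of all genes were, and the median difference was 2.15 against -0.05 for all genes. Dlx5 (1.92 ± 0.31), Dlx6os1 (2.40 ± 0.34) and Sp9 (2.03 ± 0.33) also had libraries that lay apart, which 20.2% of all genes had. Gad1 was not called, at 0.47 ± 0.34 (adjusted p = 0.330).

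The smaller calls of this step rested on few libraries. pNSC replicate 1 was the highest pNSC library for all 10 rows, and its summed neuroblast level, 9.96, stood above the 8.72 of the next pNSC library; the part of neuroblast RNA in these values was not tested. Without it, Dlx2 still differed by 2.09 ± 0.16 (adjusted p = 3.50e-09), Dlx1 by 2.08 ± 0.21 (adjusted p = 1.88e-07) and Dlx5 by 1.64 ± 0.30 (adjusted p = 0.000466). Gad2, called with all libraries at 1.41 ± 0.39 (adjusted p = 0.0116), then had 1.04 ± 0.39 and an adjusted p of 0.0761, and without qNSC replicate 3 its adjusted p was 0.0571. The misc_RNA row of Dlx6os1, at 1.1 ± 0.40 (adjusted p = 0.0484), lost its call in 11 of 15 alternative fits, including those without qNSC replicate 2, 3 or 4 and without pNSC replicate 1, 3 or 4, with adjusted p from 0.0131 to 0.232 over the 15. With a fit on the qNSC and pNSC libraries alone, only 5 of the 10 rows were called: Dlx1, Dlx2, Dlx5, Dlx6os1 and Sp9. The share of all genes called in that fit is not given here.

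The step from pNSC to aNSC divided the programme. Dlx1 and Dlx2 rose again, while the other 8 rows fell, among them Dlx5 and Dlx6 of the other Dlx pair. Dlx2 read 9.79, 9.25, 9.43 and 9.41 in aNSC, above all pNSC libraries, and differed from pNSC by 1.39 ± 0.23 (adjusted p = 1.63e-05). Dlx1 read 9.02, 8.64, 8.72 and 8.57 in aNSC and differed by 0.96 ± 0.25 (adjusted p = 0.00268), although pNSC replicate 1 lay within the aNSC range. Without that library the differences were 1.75 ± 0.16 for Dlx2 and 1.3 ± 0.21 for Dlx1.

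Dlx6os1 read 8.47, 6.55, 7.68 and 7.20 in pNSC and 4.89, 4.41, 4.90 and 4.29 in aNSC, a fall of 2.85 ± 0.34 on the log2 scale (7.23-fold; adjusted p = 1.39e-07). All aNSC libraries lay below all pNSC libraries, and within the range of the qNSC libraries or below it. Dlx5 read 4.82, 3.31, 4.22 and 3.59 in pNSC and 3.02, 2.11, 2.82 and 2.07 in aNSC, with a difference of -1.48 ± 0.31 (adjusted p = 0.000285). Dlx6 differed by -1.54 ± 0.47 (adjusted p = 0.00936), with overlapping libraries. Of all genes, 28.4% were called higher and 19.9% lower at this step, and the median difference of the 10 rows was -1.61 against 0.22 over all genes.

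Sp8 fell furthest, from 2.88, 1.59, 2.29 and 1.36 in pNSC to -2.13, -0.64, -1.23 and -0.40 in aNSC, by 3.13 ± 0.52 (adjusted p = 2.15e-05). Its aNSC values are low, but all stood above the aNSC floors. Sp9 differed by -1.67 ± 0.33 (adjusted p = 0.000175) and Gad1 by -2.47 ± 0.34 (adjusted p = 1.61e-06), both with libraries apart, as 7 of the 10 rows were, where 46.0% of all genes were. Gad2 differed by -1.18 ± 0.39 (adjusted p = 0.0153) and lost its call without pNSC replicate 1, at -0.81 ± 0.39 and an adjusted p of 0.0852. The calls of the other 9 rows remained without that library.

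The Dlx pairs were also contrasted directly within each library. The mean of Dlx1 and Dlx2 less the mean of Dlx5 and Dlx6 was 7.92 ± 0.54 log2 units in aNSC (SD, n = 4) and 5.23 ± 0.61 in pNSC (SD, n = 4). The difference of 2.69 had a two-sided exact permutation p of 0.0286, the smallest that 4 against 4 libraries allow. Without pNSC replicate 1 it was 2.80, with an exact permutation p of 0.0571, again the smallest possible. This contrast was chosen after the values had been seen.

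Markers of other cells also differed between pNSC and aNSC. The summed astroglial level was 14.16 to 14.44 in pNSC and 10.43 to 11.36 in aNSC, and all 7 of its genes were called lower. The summed level of 9 striatal projection neuron genes was 7.71 to 8.20 in pNSC and 4.51 to 5.27 in aNSC, carried in pNSC by Ppp1r1b at 7.82. Of these 9 genes, only 3 were called lower in aNSC and 1 was called higher. Their median log2 difference was -0.18, against 0.22 over all genes. The neuroblast sums overlapped, with 3 of the 6 genes called lower in aNSC and none higher. Between these populations, 19.9% of all genes were called lower and 28.4% higher. Striatal projection neurons and neuroblasts are GABAergic too, and the part of such cells in the Dlx5, Dlx6, Sp and Gad values of pNSC was not tested.

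**Figure D2:**
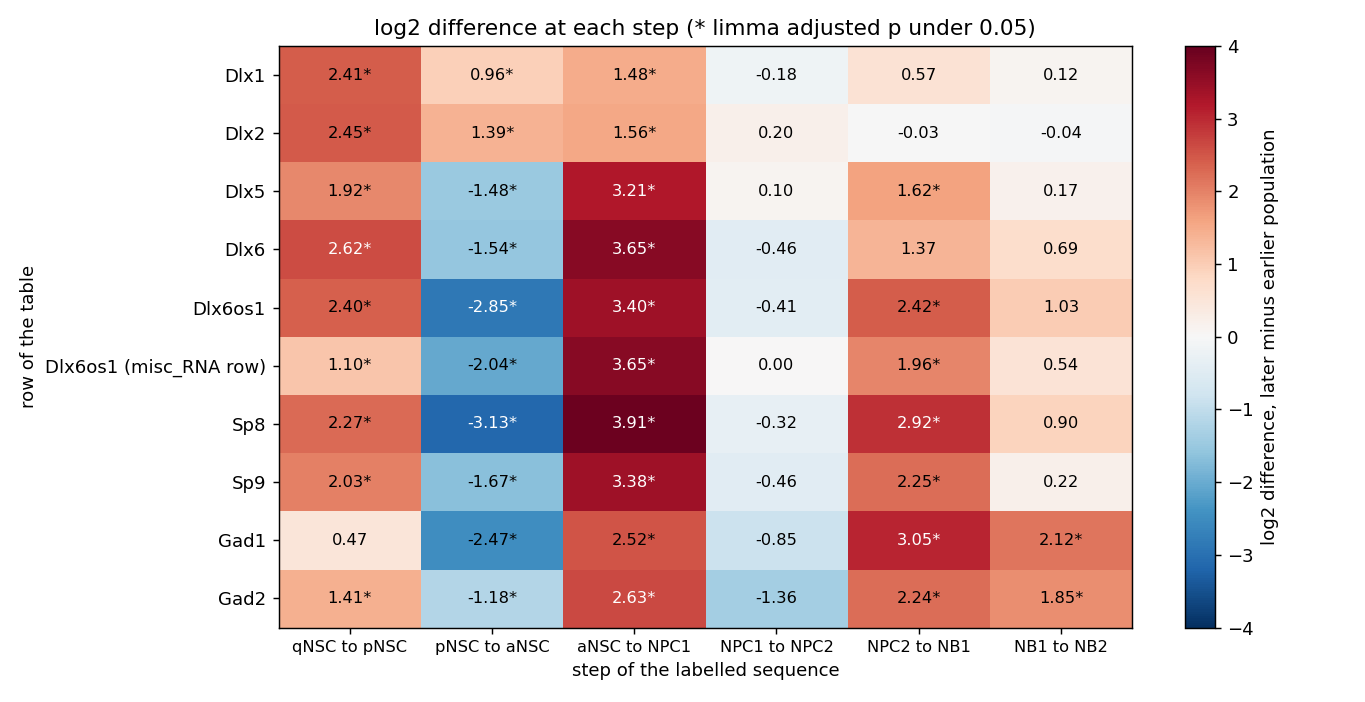
Log2 difference at each step of the labelled sequence (columns) for the 10 rows, later minus earlier population, from limma's fit over the 28 freshly sorted libraries; asterisks mark adjusted p under 0.05. The second column divides Dlx1 (0.96) and Dlx2 (1.39) from the other rows (-1.18 to -3.13), and in the third column all 10 rows are higher.

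NPC1 was the step at which all the genes rose together. All 10 rows were called higher in NPC1 than in aNSC, where 6.24% of all genes were, and the libraries lay apart for all 10, where 29.8% of all genes did. The median difference of the rows was 3.30, against 0.03 over all genes. Sp8 went from the low aNSC values above to 3.49, 1.98, 2.79 and 2.96, a rise of 3.91 ± 0.52 (adjusted p = 1.30e-05). Dlx6os1 read 9.06, 7.66, 7.63 and 7.75 in NPC1 and rose by 3.40 ± 0.34 (adjusted p = 2.11e-07). Dlx1 and Dlx2, which were already high, gained least, at 1.48 ± 0.25 (adjusted p = 0.000237) and 1.56 ± 0.23 (adjusted p = 3.71e-05).

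The NPC1 libraries were not alike. Replicate 1 was the highest NPC1 library for 9 of the 10 rows, and its summed neuroblast level, 11, was above the 10.03 to 10.25 of the other 3. The part of neuroblast RNA in the NPC1 values was not tested. All 10 calls remained when any 1 of the aNSC or NPC1 libraries was left out.

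Between NPC1 and NPC2 no row was called in the main fit by limma, where 1.34% of all genes were. The medians of the rows and of all genes were -0.37 and 0.02. Gad2 read 6.97, 6.39, 6.04 and 5.96 in NPC1 and 4.98, 4.97 and 4.98 in NPC2, and Gad1 read 5.18, 3.99, 3.90 and 4.37 against 3.69, 3.49 and 3.34. For both enzymes the libraries lay apart, as they did for 18.4% of all genes. Gad2 differed by -1.36 ± 0.42 with an adjusted p of 0.133, and it was called lower with library weights (adjusted p = 0.000439) and with a fit on these libraries alone (adjusted p = 0.00833). Unadjusted, limma's p in the main fit was 0.00353 for Gad2, 0.0298 for Gad1 and 0.21 or more for the other rows. The share of all genes with such unadjusted p is not given here.

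From NPC2 to NB1, 7 rows were called higher, where 3.78% of all genes were, and 8 had libraries apart, where 35.1% of all genes had. Gad1 rose most, to 6.46, 6.59 and 6.62 in NB1, by 3.05 ± 0.40 (8.28-fold; adjusted p = 1.20e-05). Sp8 rose by 2.92 ± 0.60 (adjusted p = 0.00248), to 5.47, 5.60 and 5.16. Dlx6os1 rose by 2.42 ± 0.39 and Sp9 by 2.25 ± 0.38, and Dlx5 by 1.62 ± 0.35 (adjusted p = 0.00421). Dlx2 read 11.31, 11.26 and 11.10 in NPC2 and 11.18, 11.31 and 11.10 in NB1, a difference of -0.03 ± 0.26 (adjusted p = 0.979). Dlx1 (0.57 ± 0.29, adjusted p = 0.276) and Dlx6 (1.37 ± 0.55, adjusted p = 0.141) were not called either. Both were called higher with library weights (adjusted p = 0.000197 for Dlx1 and 0.0148 for Dlx6) and with a fit on these libraries alone (adjusted p = 0.0473 and 0.00873), and Dlx6 also with values below 0 set to 0 (adjusted p = 0.0165).

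In NB2 only the 2 enzymes of GABA synthesis were called above NB1 in the main fit, where 10.4% of all genes were called higher. Gad1 read 8.56, 8.77 and 8.71 in NB2 and rose by 2.12 ± 0.40 (4.36-fold; adjusted p = 0.000245). Gad2 read 7.0, 7.11 and 7.55 in NB1 and 9.07, 9.17 and 8.95 in NB2, a rise of 1.85 ± 0.45 (adjusted p = 0.00372). Both sets of libraries lay apart, as did those of 6 rows in all, beside 50.2% of all genes. Dlx6os1 differed by 1.03 ± 0.39 with an adjusted p of 0.0539. With a fit on NB1 and NB2 alone 6 rows were called, adding Dlx6, both Dlx6os1 rows and Sp8. The share of all genes called in that fit is not given here. Whether the Gad rise exceeded that of the other rows was not tested.

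The order of onset followed from contrasts with qNSC. A gene's onset was the first population higher than qNSC by a log2 difference of at least 1 and an adjusted p under 0.05, from which every later population was also higher. Dlx1 and Dlx2 had their onset in pNSC, Dlx5, Dlx6, both Dlx6os1 rows, Sp8, Sp9 and Gad2 in NPC1, and Gad1 in NB1. Onset at pNSC or aNSC, met by 2 of the 10 rows, was met by 15.0% of all genes, and onset anywhere in the sequence by 29.7%. These contrasts share the 4 qNSC libraries.

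aNSC was the population that moved most onsets to NPC1. Against qNSC, aNSC was called higher for Dlx1 (3.37 ± 0.25) and Dlx2 (3.84 ± 0.23) and lower for Gad1 (-2.0 ± 0.34; adjusted p = 1.52e-05) and the misc_RNA row, where 35.3% and 27.1% of all genes were called higher and lower. The misc_RNA call (adjusted p = 0.0431) ended in 6 of 15 alternative fits. Without qNSC replicate 1, limma called Sp8 lower in aNSC (-1.51, adjusted p = 0.00518) and Gad2 higher (0.77, adjusted p = 0.0386). With library weights, Sp8 (adjusted p = 0.032) and Dlx6os1 (adjusted p = 0.0131) were called lower. For Dlx6, aNSC differed from qNSC by 1.08 ± 0.47 with an adjusted p of 0.0505, and leaving out qNSC replicate 4, aNSC replicate 2 or aNSC replicate 4 brought its onset to pNSC. Dlx5, Sp9 and Gad1 kept their onset in all 35 alternatives.

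On the way from qNSC to NB2, Dlx2 had covered 44.3% of its log2 difference in pNSC, 69.5% in aNSC and 97.7% in NPC1. Dlx1 had covered 45.0%, 62.9% and 90.5%. Dlx5 stood at 34.7%, 7.9% and 65.9%, and Sp8 at 34.6%, -13.2% and 46.5%, where a negative share means a mean below qNSC. Gad1 stood at 9.8% in pNSC, -41.1% in aNSC, 10.9% in NPC1, -6.7% in NPC2 and 56.2% in NB1. The largest single step was the one to pNSC for Dlx1 and Dlx2, the one to NB1 for Gad1 and the one to NPC1 for the other 7 rows.

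**Figure D3:**
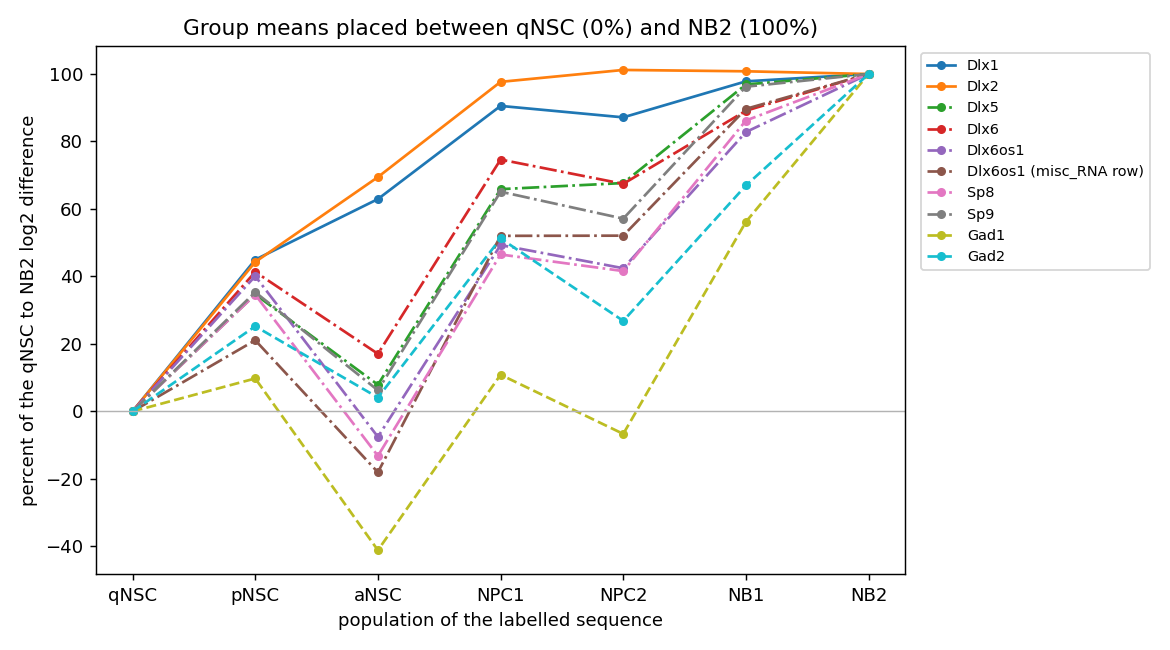
Group means of the 10 rows along the labelled sequence, placed, as a percentage, on a scale from the qNSC mean to the NB2 mean of the log2 level. Solid lines (Dlx1 and Dlx2) run above all other rows from pNSC to NB1, dash-dotted lines are the other Dlx and Sp rows, and the dashed Gad1 line lies lowest from pNSC to NB1, reaching 56.2% in NB1.

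Ratios between paired genes were taken within each library, which sets aside differences between libraries that act on both genes alike. Of the 5 pairs tested over the 25 libraries of the sequence, 4 differed between populations by a permutation test of the F statistic, with p-values adjusted over the 5 pairs. Dlx5 minus Dlx6 did not pass (mean log2 difference from 2.19 in NPC1 to 3.27 in qNSC; adjusted p = 0.609). A difference between the courses of these neighbouring genes was not detected, and for Dlx6 1 of the 4 qNSC libraries lay at its floor.

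Dlx1 minus Dlx2 was -0.27 ± 0.16 in qNSC (SD, n = 4), -0.73 ± 0.10 in aNSC (SD, n = 4), -1.19 ± 0.13 in NPC2 (SD, n = 3) and -0.43 ± 0.34 in NB2 (SD, n = 3; permutation test, adjusted p = 0.000517). Dlx1 thus stayed closer to Dlx2 at both ends of the sequence than in NPC2. Dlx6 minus Dlx6os1 was -6.28 ± 0.77 in qNSC, -4.51 ± 0.44 in NPC1 and -5.94 ± 0.20 in NB2 (adjusted p = 0.000475 by the permutation test). Sp8 minus Sp9 ranged from -5.70 ± 1.13 in aNSC to -3.67 ± 0.20 in NB2 (adjusted p = 0.0379 by the permutation test).

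For the GABA enzymes, Gad1 minus Gad2 was -0.86, 0.55, 1.42 and 0.31 in the qNSC libraries, on both sides of 0. It was -1.87 ± 0.87 in aNSC (SD, n = 4), -1.98 ± 0.36 in NPC1 (SD, n = 4) and -0.38 ± 0.13 in NB2 (SD, n = 3; permutation test, adjusted p = 0.000475). All NPC1 libraries lay below all NB1 and NB2 libraries, so Gad2 led Gad1 in NPC1 and the gap had narrowed in the NB populations. No pair changed its side of the threshold in the 4 alternative settings.

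**Figure D4:**
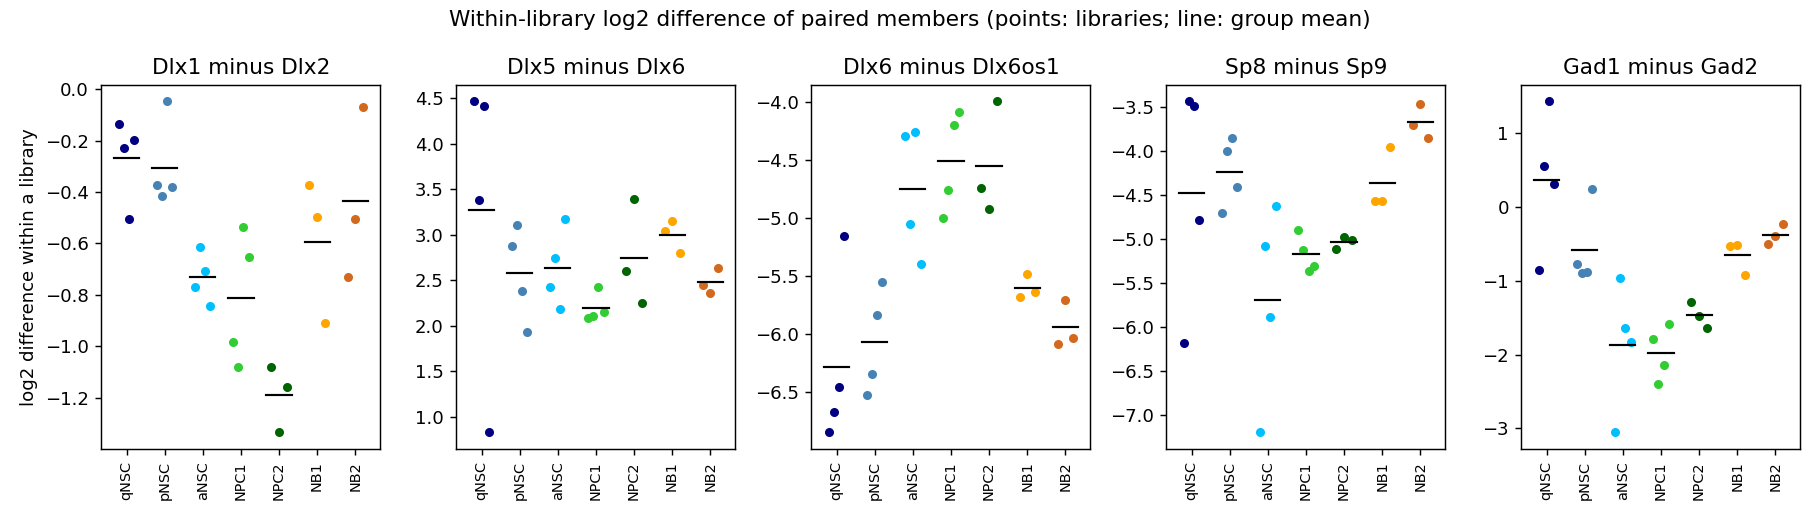
Log2 difference between paired genes within each library (vertical axes, with separate scales) over the 7 populations of the labelled sequence; points are libraries and lines are group means. Gad1 minus Gad2 has its lowest means in aNSC (-1.87) and NPC1 (-1.98), and Dlx1 minus Dlx2 its lowest mean in NPC2 (-1.19).

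The neurosphere cells held little of the programme except Gad1 in DFFDA_H, at a mean log2 level of 3.23. In DFFDA_L the Gad1 mean, 1.08, was its lowest of the 10 groups. All 10 rows were lower in DFFDA_L than in aNSC, where 38.7% of all genes were called lower in a fit over all 36 libraries, and 9 had libraries apart, where 73.3% of all genes did. Culture, passage and sort cannot be told apart from the groups here. Dlx6 and the misc_RNA row lay at the floor in all 8 neurosphere libraries and Dlx5 in 6 of them, so no fold change is given for these. With values below 0 set to 0, Dlx6, the misc_RNA row and Sp8 were no longer called. Dlx1 read 0.70, 0.45, -0.33 and -0.79 in DFFDA_L and -1.61, -1.59, -2.03 and -1.85 in DFFDA_H, against 8.57 to 9.02 in aNSC. Its difference between DFFDA_L and aNSC was -8.73 ± 0.27 (adjusted p = 1.01e-22).

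Gad1 was the most abundant of the 9 genes per kilobase of exon in both neurosphere groups, at mean log2 levels of 0.29 in DFFDA_H and -1.86 in DFFDA_L on that scale. As deposited, it read 3.18, 3.31, 3.18 and 3.23 in DFFDA_H and 1.43, 1.18, 0.73 and 0.97 in DFFDA_L, with no overlap. It was the only row that passed the filter on low values in the neurosphere fit, and it was higher in DFFDA_H by 2.15 ± 0.20 (4.43-fold; adjusted p = 4.65e-06), where 21.6% of all tested genes were called higher and 39.0% had libraries apart. Without that filter Dlx1 was also called, lower in DFFDA_H by 1.77 ± 0.38 (adjusted p = 0.00345), with libraries apart. Gad2, the partner enzyme, read -1.79, -2.33, -1.61 and -0.98 in DFFDA_H and -1.38, -2.59, -0.88 and -2.28 in DFFDA_L, which overlap.

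Gad1 in DFFDA_L overlapped Gad1 in aNSC (1.03, 2.72, 2.1 and 1.49). The difference of -0.76 ± 0.32 (adjusted p = 0.0331) lost its call without aNSC replicate 2 or 3 or DFFDA_L replicate 3 or 4, at adjusted p from 0.065 to 0.199. Gad1 minus Gad2 was 4.91 ± 0.59 in DFFDA_H and 2.86 ± 0.92 in DFFDA_L (SD, n = 4 each), while in the freshly sorted groups its means ran from -1.98 to 0.35. The summed level of the 6 neuroblast genes was 7.73 to 7.84 in DFFDA_H and 7.69 to 8.20 in DFFDA_L, above its range in qNSC. Among these genes the means in DFFDA_L ran from -4.11 for Stmn2 and -3.11 for Dcx to 7.53 for Cd24a.

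In the population labelled Other, several genes of the programme were as abundant as in NB1 or NB2, and others were lower. Gad2 read 8.92, 8.72 and 8.60 and Gad1 8.00, 7.50 and 7.20, between NB1 and NB2. Sp8 read 6.27, 5.49 and 6.14, overlapping NB2, whereas Dlx1 read 9.82, 9.58 and 9.13, below every NPC1, NPC2, NB1 and NB2 library. Dlx2 (at most 10.93 in Other), Dlx5 (at most 7.03) and Sp9 (at most 8.87) also lay below every NB1 and NB2 library. Against the average of the 7 named populations, each counted once, 9 rows were called higher, where 25.9% of all genes were, and Dlx1 was not (0.44 ± 0.22, adjusted p = 0.0880). Without pNSC replicate 1 Dlx1 was also called (adjusted p = 0.0167). The libraries of Other overlapped those of the other populations for all 10 rows, whereas 7.66% of all genes lay apart.

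Other also held RNA of other cells. Its summed level of 4 endothelial genes was 8.74 to 10.30, against at most 3.05 in the other freshly sorted libraries, and its neuroblast sum was 12.31 to 12.76. All 7 tested genes of the glutamatergic lineage were called higher in it than in the average of the 7 named populations, beside 25.9% of all genes. These 7 genes included Eomes at a mean log2 level of 4.91 and Neurod1 at 4.64. The part of each cell type in the values of Other was not tested.

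Other genes of the interneuron programme were taken from lists chosen with earlier results of these data known. Of 17 tested transcription factors of ventral and olfactory bulb interneurons, 10 were higher and 2 lower in NB2 than in qNSC, where 39.4% of all genes were higher and 28.8% lower, with a median log2 difference of 2.04. Pbx3 rose by 4.31, Foxp2 by 5.96, Etv1 by 3.21 and Meis2 by 2.24. For Pbx3 and Etv1 the pNSC and qNSC means differed by 0.03, so they did not share the early rise of Dlx1 and Dlx2.

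The antisense gene Dlx1as rose with Dlx1, by 2.01 from qNSC to pNSC (adjusted p = 4.57e-07), by 0.88 from pNSC to aNSC (adjusted p = 0.00223) and by 4.84 from qNSC to NB2. Because the genes share exon bases and the kit marks no strand, these values are not independent. Of the 6 tested genes among the other Dlx and Sp genes, 3 were higher in NB2 than in qNSC, namely Dlx1as, Sp3 (1.25) and Sp4 (0.97), and 1 was lower, Sp5 (-1.84; adjusted p = 2.85e-06). These shares are near the 39.4% and 28.8% of all genes. Sp5, a target of Wnt signalling, was higher in pNSC than in qNSC by 1.61 (adjusted p = 7.24e-05).

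Of 10 tested genes of GABA synthesis, transport and chloride handling other than Gad1 and Gad2, 6 were lower and 1 higher in NB2 than in qNSC, with a median of -1.89, where 28.8% of all genes were lower and 39.4% higher. All 7 astroglial and stem cell markers were lower in the same comparison, with a median of -7.5, and their part in these values was not tested. Slc6a11, the GABA transporter GAT-3, fell from a mean of 8.41 in qNSC to -0.13 in NB2 (adjusted p = 3.39e-12). The GABA-degrading transaminase Abat fell by 1.62 and Aldh5a1, the next enzyme of that path, by 3.10. Maob, a monoamine oxidase of astrocytes, fell by 6.62 on the log2 scale (adjusted p = 8.75e-18).

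Of 8 tested markers of interneuron subtypes, 4 were higher and 1 lower in NB2 than in qNSC, where 39.4% of all genes were higher and 28.8% lower. The serotonin receptor gene Htr3a rose by 7.93 (adjusted p = 1.77e-07) and Lhx6 by 6.15, although Htr3a and Lhx6 had mean levels near the floor in qNSC (-3.16 and -3.29). Npy rose by 2.85 (adjusted p = 0.0324) and Reln fell by 2.87 (adjusted p = 0.0219), each with wide spread in qNSC. Among 7 tested genes of the glutamatergic lineage, 4 were higher in NB2 than in qNSC, again beside 39.4% of all genes, but their NB2 means were low, with Neurod1 at -0.29 and Tbr1 at 0.75.

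Over the means of the 10 groups, the 10 genes whose pattern was most like that of the 10 rows together included Maf1, Tmem198, St8sia2, Ubxn6, Klc4, Ap2m1, Dnal4, Parp6 and Zfp579, and the 10 had Pearson's r from 0.983 to 0.991 among 11977 genes ranked. St8sia2 makes the polysialic acid that migrating neuroblasts carry, and its mean was 2.91 in qNSC, 3.96 in aNSC, 8.07 in NB2 and 0.47 in DFFDA_L. The 10 points share their libraries, and the neurosphere groups weigh heavily in these values. Within the programme, r over the 7 means of the sequence was 0.992 for Dlx1 with Dlx2, 0.990 for Dlx5 with Dlx6 and 0.998 for Dlx6os1 with Sp8, but 0.387 for Dlx2 with Gad1. These correlations across populations are given as descriptions.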

How the data were processed

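RNA of 28 freshly sorted SEZ libraries and 8 neurosphere libraries had been made into poly(A) libraries with the SMARTer Ultra Low kit, per the labels' protocols. Per the submitters' processing notes, which give no roles, the tools were limma, featureCounts, HISAT2, Trimmomatic, cutadapt and FastQC, and the builds mm10 and GRCm38. Versions, annotation and read depth: not given in the sources used here. Log2 values for 19909 genes were deposited as 1 table. Its unit was read from the values: 2 raised to them sums to between 987637 and 987910 in every library, and medians run from 3.53 to 3.56, which resembles quantile-normalized log2 CPM. Such scaling hides changes in the total RNA of a cell. Blank lines at the end (1770) were dropped. No column belonged to another sample.

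Values were used as deposited, and coordinates came from GENCODE M21. The design foresaw a count model for counts; the table holds log values, so limma 3.58.1 in R 4.3.3 was used, with trend and robust settings, 1 mean per group and no covariate: 1 fit over the 28 freshly sorted libraries (17788 genes), 1 over the 8 neurosphere libraries (15956 genes) and 1 over all 36 (19158 genes, for DFFDA_L against aNSC only). A gene was tested if 3 or more libraries of 1 group had a log2 value of 0 or above, and the Benjamini-Hochberg adjustment ran over all genes of a comparison. The fit was tested on simulated data. Pair ratios used 100000 permutations in scipy 1.17.1. The labels do not say that replicates came from separate animals, so p-values reflect only the spread of these samples, which may be technical. A log2 value near a library's floor understates or overstates a fold by an unknown amount. Members, lists and rules were chosen with earlier results of these data known: the members are named throughout, with up to 5 genes of each other list by smallest p in NB2 against qNSC and the 10 genes with the most similar pattern over groups. A few genes that this rule names are not reported here. Alternatives were other filters, floors, scalings, variance models, library weights, a replicate block, fits on the compared libraries alone and leaving out each library.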

Additional observations from a re-analysis of the deposited data

Results flagged for a closer look

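In groups of 4 libraries, 7 of 55 checks found 1 library far from the other 3, by Dixon's ratio of the gap to the range, where chance gives about 1 in 20 groups. Dlx2 in qNSC replicate 1 was 5.98, above the 5.49 to 5.54 of the others, and Dlx2 in DFFDA_H replicate 4 was -0.77, above -1.90 to -1.79. Dlx5 in qNSC replicate 4 was 1.14, below 2.29 to 2.44. Dlx6 in pNSC replicate 2 was 0.20, below 1.65 to 1.95. Dlx6os1 in NPC1 replicate 1 was 9.06, above 7.63 to 7.75, and Dlx6os1 in DFFDA_L replicate 4 was -4.75, with the others at the floor of -5.06. Sp9 in qNSC replicate 2 was 4.87, above 4.01 to 4.03.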

How the results depend on the processing

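The counts of called rows stayed within 1.5 times the main count in 68 of 77 other settings and in all 94 fits that left out 1 library. The number of rows with an onset by aNSC did so in all 10 other settings and 25 fits without 1 library, and the 5 pair ratios kept their side of the threshold in the 15 other tests and in the 5 without pNSC replicate 1. With fits on the compared libraries alone, the rows called were 5 for pNSC against qNSC, 1 for NPC2 against NPC1, 6 for NB2 against NB1 and 6 of 7 tested for DFFDA_L against aNSC. Library weights gave 1 for NPC2 against NPC1 and 4 for NB2 against NB1. Restricting genes to a mean of at least 4 gave 6 of 6 tested for DFFDA_L against aNSC, since fewer were tested, and no filter gave 2 for DFFDA_H against DFFDA_L. The cause of the other changes was not tested, and shares of all genes called in the other settings are not given here.

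The replicate number as a block gave 1 called row for NPC2 against NPC1 (Gad2, adjusted p = 0.0205) and 3 for NB2 against NB1; it moved no other count by over 1.5 times. Same-numbered samples share only a number: 14 of 90 pairs of freshly sorted groups had correlated deviations over 0.1 (range -0.21 to 0.19), and 2 of 4 in culture (0.03 to 0.20). Under the block, Dlx5 and the misc_RNA row reversed between NPC1 and NPC2, at -0.0368 and -0.0623, and under library weights Dlx2 reversed between NPC2 and NB1, at 0.0772; none of the 3 was called in any fit.

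Leaving out 1 library reversed only rows that were not called: for NPC2 against NPC1, Dlx5 ranged from -0.13 to 0.24 and the misc_RNA row from -0.21 to 0.42; for NB1 against NPC2, Dlx2 from -0.0870 to 0.0214; for NB2 against NB1, Dlx1 from -0.0894 to 0.252, Dlx2 from -0.0898 to 0.0130, Dlx5 from -0.00840 to 0.307 and Sp9 from -0.12 to 0.42. Onset changed in at most 3 alternatives for any row: to pNSC for Dlx6 in 3 of 34, each without 1 library, to aNSC for Dlx1 and Dlx2 and to NB1 for Dlx6os1, Sp8 and Gad2 under a midpoint rule, and to NB1 for Gad2 when every library had to exceed qNSC. Depth is unknown, so which differences of rows near the floor the libraries could show is unknown too.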
